A study of Mus musculus with 20 samples.

Results

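The genes described here encode the ID family, Id1, Id2, Id3 and Id4, which are 4 of the 45705 genes measured in neural stem cells and progenitors of the neonatal mouse periventricular zone. They were taken by gene name, and all 4 passed the filter on low values, which left 27614 genes for testing. The study asked how intermediate progenitors of the subventricular zone differ in gene expression from neural stem cells (NSCs) and from each other. Swiss Webster pups were used at postnatal day 5, and all pups of a litter were pooled, so a library is a litter pool of cells and not a single animal. Live cells were sorted by the surface antigens CD133, LeX (CD15), CD140a and NG2 into NSCs, which carried CD133 and LeX but neither CD140a nor NG2, and into 4 progenitor populations named by earlier culture work: the neuron-astrocyte or glial-restricted BNAP/GRP1, the glial-restricted or multipotential GRP2/MP3, the glial-restricted GRP3 and the PDGF- and FGF-responsive multipotential PFMP. No population was treated, and each was sequenced in 4 batches, which gives 20 libraries.

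ID proteins carry a helix-loop-helix domain but lack the basic region through which other members of the basic helix-loop-helix (bHLH) family contact DNA. They bind the ubiquitous E proteins and keep them from pairing with tissue-specific bHLH factors such as OLIG2, so they are known as inhibitors of differentiation. Id genes are classical targets of bone morphogenetic protein (BMP) signalling through SMAD proteins, and in the forebrain they are known from radial glia, astrocytes and stem cells, while Id1 and Id3 are also known from the endothelium.

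The stretch that the 4 genes share most closely encodes the helix-loop-helix domain, and it is shown because it is what makes them 1 family. The ungapped windows of 40 codons with the most residues in common were found in the reference transcripts (GENCODE vM21, GRCm38), and all lie in exon 1 of the gene. The 120 bases are written 5′ to 3′ on the coding strand, and capitals mark the bases that were identical in all 4 genes, which were 69 of 120 (57.5%).
Id1: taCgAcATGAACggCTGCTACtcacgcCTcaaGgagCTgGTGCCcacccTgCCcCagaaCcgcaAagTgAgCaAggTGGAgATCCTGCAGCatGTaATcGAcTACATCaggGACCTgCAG
Id2: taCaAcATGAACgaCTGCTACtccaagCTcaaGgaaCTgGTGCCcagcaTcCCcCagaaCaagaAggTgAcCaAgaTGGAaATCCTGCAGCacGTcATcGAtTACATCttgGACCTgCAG
Id3: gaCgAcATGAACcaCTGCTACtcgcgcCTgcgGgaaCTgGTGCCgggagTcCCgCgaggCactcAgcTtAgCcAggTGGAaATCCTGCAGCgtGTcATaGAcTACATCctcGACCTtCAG
Id4: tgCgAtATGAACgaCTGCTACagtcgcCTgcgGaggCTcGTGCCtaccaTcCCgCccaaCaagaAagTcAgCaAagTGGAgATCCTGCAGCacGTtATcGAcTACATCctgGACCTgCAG
The Id1 window spans chr2:152736518-152736637 on the plus strand, within a gene at chr2:152736251-152737410 (ENSMUSG00000042745). The Id2 window spans chr12:25095783-25095902 on the minus strand, within a gene at chr12:25093799-25097140 (ENSMUSG00000020644). The Id3 window spans chr4:136144002-136144121 on the plus strand, within a gene at chr4:136143497-136145755 (ENSMUSG00000007872). The Id4 window spans chr13:48261693-48261812 on the plus strand, within a gene at chr13:48261228-48266026 (ENSMUSG00000021379). Id1 and Id2 were the closest pair in this window, with 98 of 120 bases identical (81.7%), followed by Id1 and Id4 with 93 (77.5%). Id3 was the most divergent member, with 85 of 120 bases shared with Id1 and 85 with Id4 (70.8% each). The windows are coded by 4 separate loci on 4 chromosomes, and reads are counted over whole transcripts, of which these windows are a small part.

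Before the values, the libraries of batch 3 have to be described. Summed erythrocyte markers (5 genes, led by the haemoglobin gene Hbb-bs) reached 228440 to 252653 RPKM in all 5 libraries of batch 3, against 10.2 to 26514 in the other 15, where RPKM relate the reads of a gene to its length and to the size of the library. Summed lung epithelium markers (4 genes, led by Scgb1a1, a secretory cell product) were 854 to 976 RPKM in batch 3 and 0 to 39.2 elsewhere. Summed markers of astroglia and neural stem cells (10 genes, led by Fabp7) were 159 to 287 RPKM in batch 3 and 348 to 14937 elsewhere. The 5 batch 3 libraries thus resembled each other whatever the sorted population. The Id4 differences are also given without them. Population means, and the fitted differences and blocked calls of the other genes, include batch 3. In batch 4, BNAP/GRP1 had the lowest relative depth of all libraries, 0.0395 of that of BNAP/GRP1 of batch 1. Its median RPKM over all genes was 8.30. In that batch the median was also raised in GRP3 (2.02), NSC (1.61) and GRP2/MP3 (0.977), but not in PFMP (0.0079). It was 0 to 0.237 in batches 1 to 3. A low RPKM value in those raised libraries therefore lies nearer to that of a typical gene. In its NSC library, batch 3 still held ependymal markers (8 genes, summed 1186 RPKM) that were at 4.07 to 6.93 RPKM in the other libraries of that batch.

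**Figure D1:**
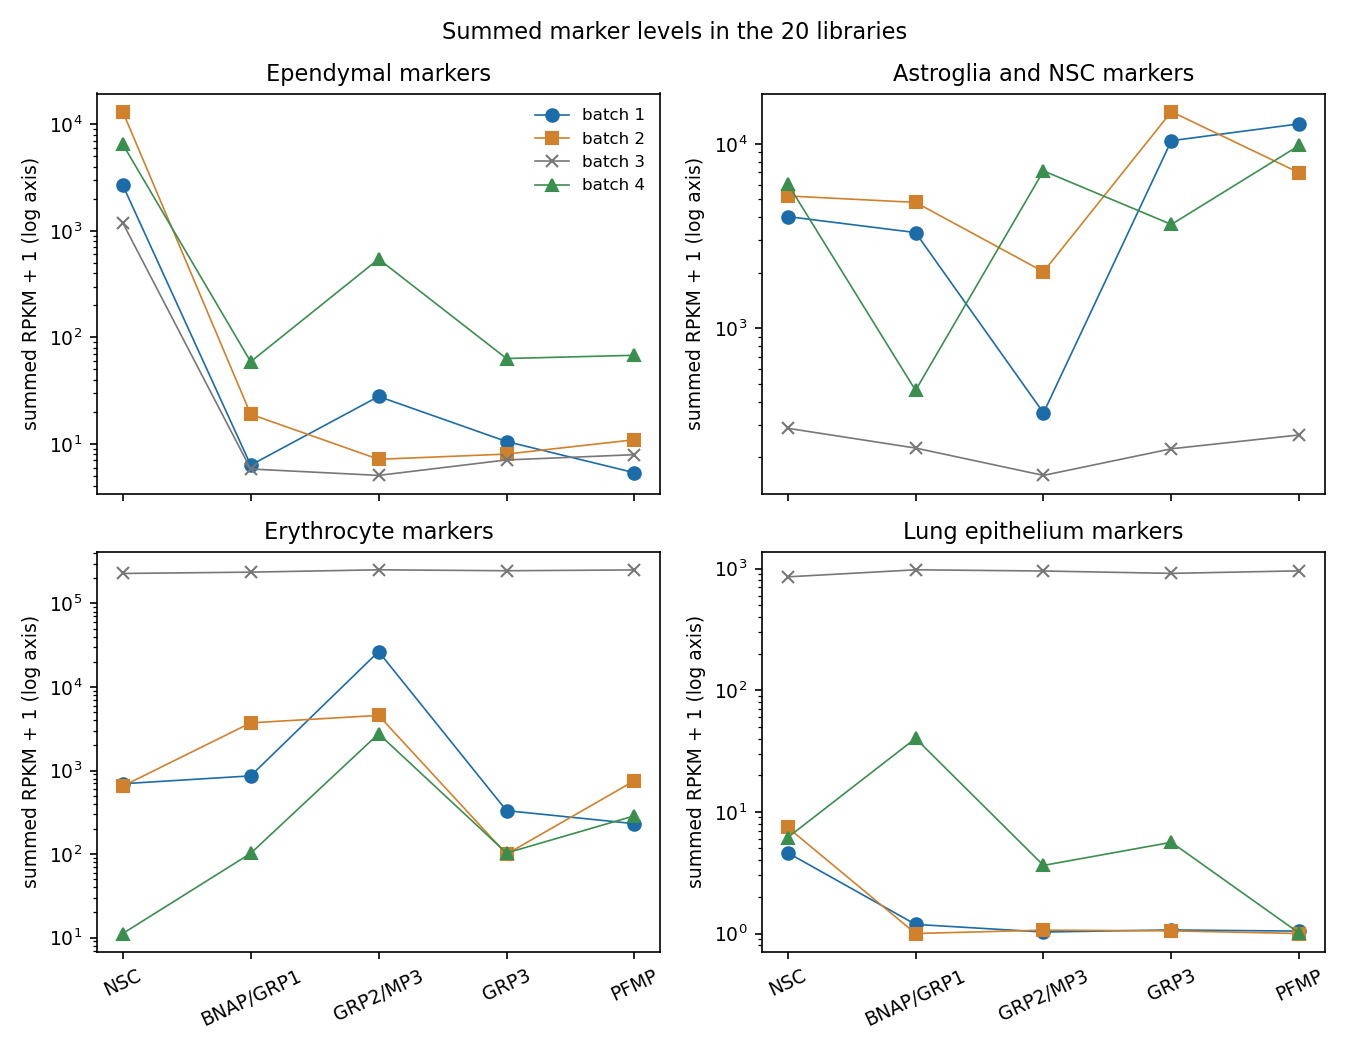
Summed RPKM plus 1 (log axis) of 4 marker lists in each of the 20 libraries, by population, with lines joining the libraries of a batch. Ependymal markers were highest in NSC in every batch, and batch 3 stood apart by erythrocyte markers of 228440 to 252653 RPKM and lung epithelium markers of 854 to 976 RPKM.

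Id4 was the 1 member that was lower than in NSCs within each batch in all 4 progenitors. In NSCs, Id4 was 520, 290, 12.4 and 193 RPKM in batches 1 to 4. It was 41.1, 35.2, 0.506 and 13.1 RPKM in BNAP/GRP1, and 2.64, 39.8, 0.21 and 23.7 RPKM in GRP2/MP3. In GRP3 it was 16.9, 33.0, 0.0429 and 8.13 RPKM, and in PFMP 38.6, 5.62, 0.713 and 17.0 RPKM. Each of the 16 progenitor libraries lay below the NSC library of its own batch. The groups overlapped only through batch 3, since the NSC library of that batch (12.4 RPKM) lay below the highest library of each progenitor (33.0 to 41.1 RPKM), whereas in batches 1, 2 and 4 the lowest NSC library (193 RPKM) was above every progenitor library.

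The mean Id4 level was 254 ± 212 RPKM in NSCs (SD, n = 4) and 17.3 ± 15.8 RPKM over the progenitors (SD, n = 16). Those 16 libraries are 4 populations from the same 4 batches, so they are not 16 independent samples. Within a batch, NSCs exceeded BNAP/GRP1 by 8.25- to 24.4-fold, and GRP2/MP3 by 7.29- to 197-fold. They exceeded GRP3 by 8.79- to 288-fold and PFMP by 11.4- to 51.6-fold. The upper ends rest on few reads: RPKM values step in whole reads, and the lowest Id4 value, GRP3 of batch 3, corresponded to 5 reads, with an exact Poisson 95% interval of 0.0139 to 0.1 RPKM. The same steps gave 118 reads for Id4 in GRP2/MP3 of batch 1 and 148 in PFMP of batch 2, so those low values rested on many more reads. These are the smallest read numbers that the steps allow, and the true ones could be a multiple of them. Intervals of this kind cover counting error only and say nothing about the amplification of RNA before sequencing.

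Differences were tested on the log2(RPKM + 1) scale with limma, with 1 mean per population and no batch term; the adjustment for multiple testing (Benjamini-Hochberg) took in each of the 27614 genes tested. Id4 differed from NSCs by -4.11 in GRP2/MP3 (95% interval -7.02 to -1.20; limma adjusted p = 0.301), by -4.01 in GRP3 (-6.92 to -1.10; adjusted p = 0.367), by -3.89 in PFMP (-6.80 to -0.98; adjusted p = 0.375) and by -3.39 in BNAP/GRP1 (-6.30 to -0.48; adjusted p = 0.681). No Id gene was called at 0.05, where the share of all genes called was 1.14% for PFMP, 1.12% for GRP2/MP3, 1.05% for GRP3 and 0.76% for BNAP/GRP1. Unadjusted, 2 of the 4 members were under 0.05 in GRP3 and PFMP (Id1 and Id4) and 1 in the other two (Id4). Of all 27614 genes, 1552 were under 0.05 in GRP3, 1623 in PFMP, 1600 in GRP2/MP3 and 1629 in BNAP/GRP1. Against the mean of the 4 progenitors, NSCs were higher in Id4 by 3.85 (1.55 to 6.15; adjusted p = 0.0926), again with no Id gene called where 1.98% of all genes were. Of those 546 genes, 540 were higher in NSCs. Few genes fell further than Id4: of the 27614 genes, 247 had a lower difference in BNAP/GRP1, 231 in PFMP, 191 in GRP2/MP3 and 186 in GRP3.

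The labels give the replicate number as a batch, so libraries of a number belong together, and with the batch as a block Id4 was called in every comparison with NSCs. Its log2 differences stayed as above, their SE fell from 1.40 to 0.69, and its limma adjusted p became 0.00121 for GRP2/MP3, 0.00164 for GRP3, 0.00208 for PFMP and 0.00858 for BNAP/GRP1. With the block, Id4 was the 1 of 4 members called, against 3.08%, 2.6%, 2.79% and 2.09% of all genes in the same order. In NSCs against all progenitors the blocked adjusted p was 0.000119, where 4.36% of all genes were called. Without batch 3, and with no block, the difference was -4.32 for GRP2/MP3 (limma adjusted p = 0.0191), -4.20 for PFMP (adjusted p = 0.0226), -4.12 for GRP3 (adjusted p = 0.0253) and -3.47 for BNAP/GRP1 (adjusted p = 0.0868). The share of all genes called was not counted without batch 3. The 4 comparisons share the same NSC libraries, so they are not independent of each other.

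**Figure D2:**
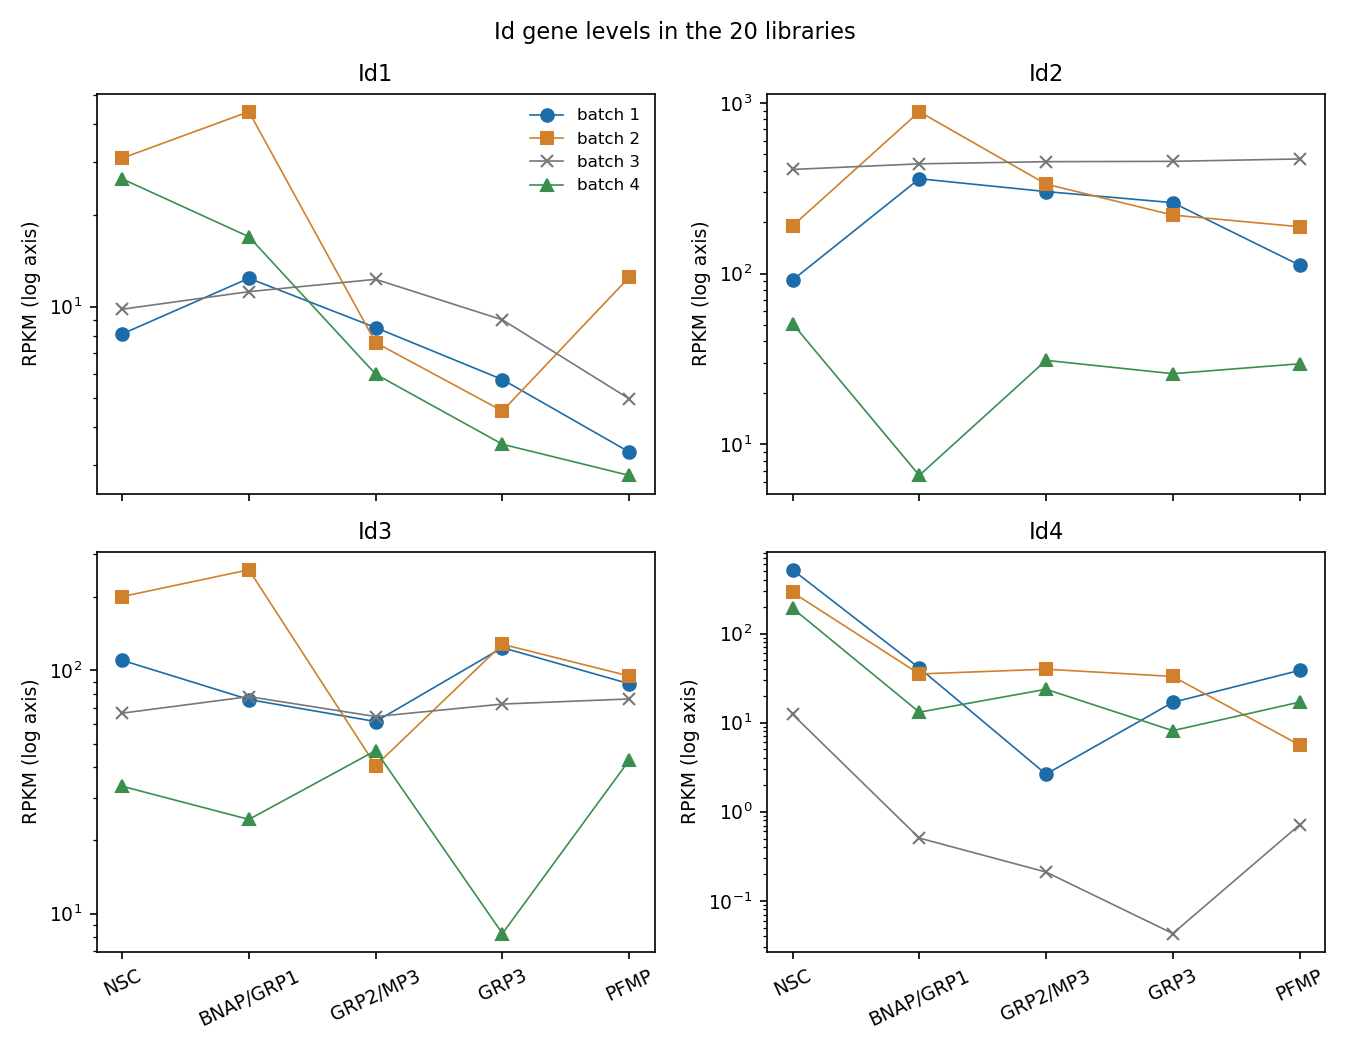
RPKM (log axes) of Id1, Id2, Id3 and Id4 in each library, by population, with lines joining the libraries of a batch. Id4 was higher in NSC than in each progenitor in all 4 batches, while Id2 lay between 407 and 469 RPKM in all 5 libraries of batch 3.

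Ependymal markers, like Id4, were higher in NSCs than in the progenitors. Of the 8 ependymal genes, 6 were lower than in NSCs in GRP2/MP3 and 7 in each of the other progenitors (limma adjusted p under 0.05), among them Foxj1, the regulator of motile cilia, and Dynlrb2, a dynein light chain. The sum of the 8 was 1186 to 13097 RPKM in NSCs, and in progenitors 4.82 to 58.1 (BNAP/GRP1), 4.07 to 542 (GRP2/MP3), 6.08 to 62.3 (GRP3) and 4.37 to 66.9 RPKM (PFMP). Among NSC libraries its order was not that of Id4. The sum was 2679, 13097, 1186 and 6482 RPKM in batches 1 to 4, where Id4 was 520, 290, 12.4 and 193 RPKM. Hydin was listed at 0 in 4 progenitor libraries, all of batch 3, and Foxj1 was above 0 in every NSC library. Of the 10 markers of astroglia and neural stem cells, Hopx was called without the block, lower in GRP2/MP3, GRP3 and PFMP. With the block, under which Id4 was called, the astroglial markers called lower were Sox9 in BNAP/GRP1, Hopx and Sox9 in both GRP2/MP3 and PFMP, and Gja1, Aqp4 and Hopx in GRP3, and 5 of the 10 were called in NSCs against all progenitors. The block also called 7 ependymal genes in BNAP/GRP1, GRP2/MP3 and GRP3 and 8 in PFMP, and of 4 choroid plexus markers 2 in PFMP, 2 in GRP2/MP3 and 1 in GRP3, all lower than in NSCs. In bulk RNA, fewer cells of a type and less RNA per cell cannot be told apart, and the part of ependymal, astroglial and choroid plexus cells in the Id4 difference was not tested.

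**Figure D3:**
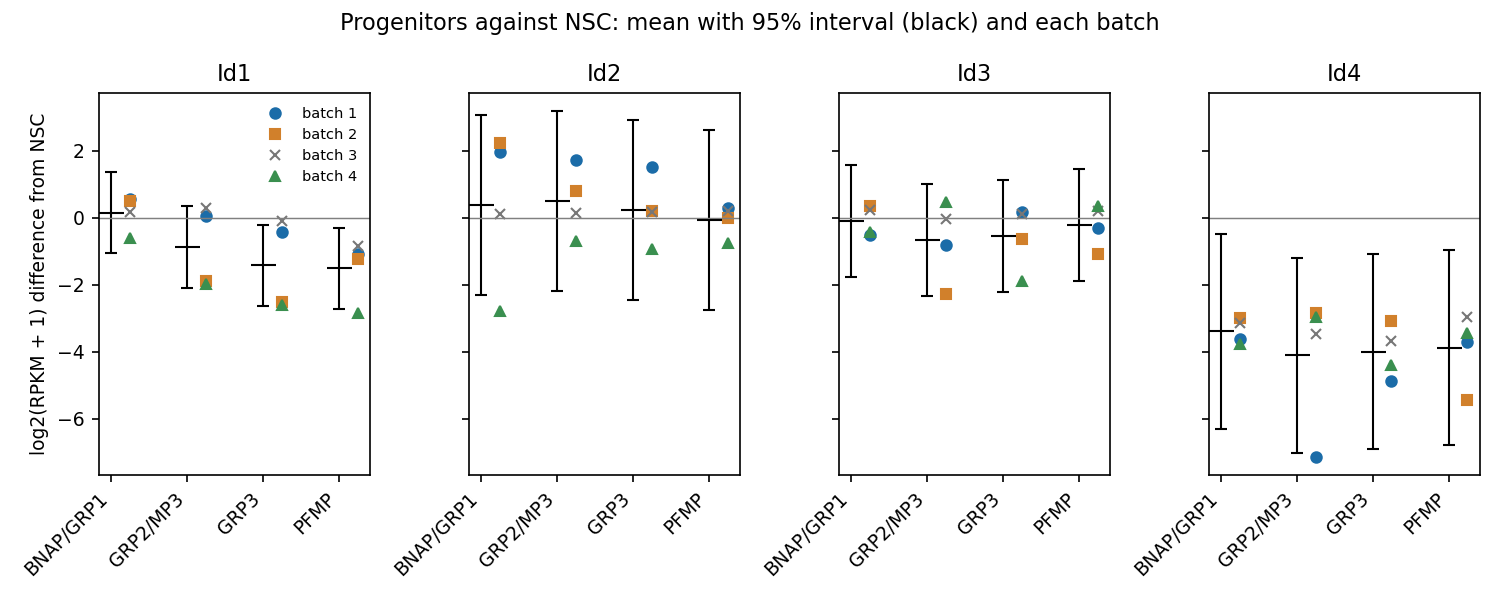
Differences in log2(RPKM + 1) from NSC for the 4 Id genes in each progenitor: black bars show the fitted mean with its 95% interval (no batch term), and coloured points the difference within each batch. All 16 points of Id4 lie below 0 (-7.16 to -2.84), while those of Id2 and Id3 fall on both sides.

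Id1, a direct BMP target that is often used as a readout of the pathway, was the least abundant member in 12 of 20 libraries, and its lowest means were in GRP3 and PFMP. In NSCs it was 8.12, 30.9, 9.80 and 26.4 RPKM in batches 1 to 4, and in BNAP/GRP1 12.4, 44.0, 11.2 and 17.0 RPKM. It was 8.52, 7.60, 12.3 and 5.98 RPKM in GRP2/MP3. In GRP3 it was 5.74, 4.52, 9.04 and 3.51 RPKM, and in PFMP 3.31, 12.5, 4.96 and 2.77 RPKM. In GRP3 of batch 4 the median RPKM over all genes was 2.02. GRP3 and PFMP lay below the NSC library of their batch in 4 of 4 batches, GRP2/MP3 in 2 and BNAP/GRP1 in 1, while every progenitor's range overlapped that of NSCs. For GRP3 the batch 3 difference was small (9.04 against 9.80 RPKM).

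The mean Id1 level was 21.1 ± 15.4 RPKM in BNAP/GRP1, 18.8 ± 11.5 in NSCs, 8.60 ± 2.68 in GRP2/MP3, 5.89 ± 4.53 in PFMP and 5.70 ± 2.40 in GRP3 (SD, n = 4 each), and each neighbouring pair in this order differed by less than the larger SD of the 2. On the log2(RPKM + 1) scale Id1 differed from NSCs by -1.42 in GRP3 (95% interval -2.63 to -0.21; limma adjusted p = 0.63) and by -1.51 in PFMP (-2.72 to -0.30; adjusted p = 0.479). The differences were 0.15 in BNAP/GRP1 (-1.06 to 1.37; adjusted p = 0.938) and -0.88 in GRP2/MP3 (-2.09 to 0.34; adjusted p = 1). None was called, and the block did not change this (adjusted p of 0.869, 0.637, 0.187 and 0.139 in the order BNAP/GRP1, GRP2/MP3, GRP3, PFMP). With libraries weighted by their spread, Id1 passed the threshold in GRP3 (-1.40, limma adjusted p = 0.0188). How many of all genes passed it in that setting was not counted. Summed endothelial markers (9 genes) were 11.9 to 342 RPKM in NSCs (median 111), 7.14 to 23.8 in GRP3 (10.2) and 6.79 to 19.8 in PFMP (9.78). They did not follow Id1 in the other two populations, since BNAP/GRP1, with the highest Id1 mean, had 5.42 to 121 RPKM (median 22.2) and GRP2/MP3 7.81 to 204 RPKM (161). Their part in the Id1 values was not tested.

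Id2 was the most abundant member in the progenitors, and its means spread further over the batches (28.8 to 444 RPKM) than over the populations (185 to 423 RPKM). In NSCs it was 91.5, 190, 407 and 50.9 RPKM in batches 1 to 4, and in BNAP/GRP1 359, 887, 439 and 6.57 RPKM. It was 302, 334, 452 and 31.0 RPKM in GRP2/MP3. In GRP3 it was 260, 220, 454 and 25.9 RPKM, and in PFMP 112, 188, 469 and 29.6 RPKM. Batch 4 held the lowest Id2 value of every population (28.8 ± 15.8 RPKM over its 5 libraries), whereas batch 3 was nearly uniform (444 ± 23.4 RPKM, SD, n = 5). The lowest value, 6.57 RPKM in BNAP/GRP1 of batch 4, rested on 24 reads (exact Poisson 95% interval 4.21 to 9.78 RPKM). It lay below the median RPKM over all genes in that library (8.30).

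In batches 1 and 2, Id2 was higher than in NSCs in BNAP/GRP1, GRP2/MP3 and GRP3, and in batch 4 it was lower in all 4 progenitors. Over the 16 pairs of a progenitor with the NSC library of its batch, Id2 was higher in 11 and lower in 5. The higher pairs include all 4 of batch 3, where the progenitors were 1.08 to 1.15 times the NSC library. The means ran from 185 ± 159 RPKM in NSCs, 200 ± 191 in PFMP and 240 ± 176 in GRP3 to 280 ± 178 in GRP2/MP3 and 423 ± 362 in BNAP/GRP1 (SD, n = 4 each), and neighbours in this order did not differ beyond their spread. The log2 differences from NSCs were 0.49 in GRP2/MP3 (95% interval -2.20 to 3.19), 0.38 in BNAP/GRP1 (-2.32 to 3.08), 0.23 in GRP3 (-2.47 to 2.93) and, for PFMP, -0.07 (-2.77 to 2.63), with limma adjusted p from 0.932 to 1. With the block the 4 intervals narrowed (the SE fell from 1.30 to 0.62), to between -1.37 and 1.80 at their outermost, and no difference was called. Microglial markers (10 genes, summed) moved with Id2 in part. In batches 1 and 2 they were 4437 to 16125 RPKM in BNAP/GRP1 and GRP2/MP3 and 40.7 to 66.1 RPKM in NSCs, but 44.2 to 49.6 RPKM in GRP3, where Id2 was also above NSCs. They were 6458 to 7167 RPKM in all 5 libraries of batch 3 and 28.3 to 565 RPKM in batch 4. With the block 3 of the 10 were called higher in GRP2/MP3 (Csf1r, Cx3cr1 and Aif1), as were 5 of 7 pericyte markers, whose sum was 124 to 7337 RPKM in GRP2/MP3 and 3.52 to 116 RPKM in NSCs. The part of these cells in the Id2 values was not tested. The median over all genes in BNAP/GRP1 against NSCs was 0.38, the same as the Id2 value.

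Id3, which is often expressed together with Id1, showed no direction shared by the batches. In NSCs it was 110, 201, 66.7 and 33.4 RPKM in batches 1 to 4, and in BNAP/GRP1 75.9, 259, 78.0 and 24.4 RPKM. It was 61.6, 40.6, 64.6 and 46.8 RPKM in GRP2/MP3. In GRP3 it was 124, 128, 72.7 and 8.29 RPKM, and in PFMP 88.1, 94.8, 76.3 and 42.7 RPKM. Compared with NSC within each batch, Id3 was lower in 9 of 16 pairs and higher in 7, with GRP2/MP3 lower in 3 of 4 batches. Batch 3 adds little to these counts, since its progenitors were 0.969 to 1.17 times its NSC library.

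The mean Id3 level ran from 109 ± 103 RPKM in BNAP/GRP1 and 103 ± 72.7 in NSCs through 83.4 ± 56.1 in GRP3 and 75.5 ± 23.2 in PFMP to 53.4 ± 11.6 in GRP2/MP3 (SD, n = 4 each), with no neighbours that differed beyond their spread. All 4 log2 differences from NSCs were below 0 and none was called: -0.67 in GRP2/MP3 (95% interval -2.34 to 1.00), -0.56 in GRP3 (-2.23 to 1.11), -0.21 in PFMP (-1.88 to 1.45) and -0.10 in BNAP/GRP1 (-1.76 to 1.57), with limma adjusted p from 0.972 to 1. With the block the intervals lay between -1.80 and 1.04 at their outermost. As for Id2, the 5 libraries of batch 3 were close to each other (71.7 ± 5.84 RPKM, SD, n = 5), and batch 4 had the lowest mean (31.1 ± 15.4 RPKM).

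No Id gene was called between 2 progenitors in any of the 6 direct comparisons, and the share of all genes called was 0% in each, with 84 to 1355 genes at an unadjusted p under 0.05. The differences furthest from 0 were those of Id1, which was higher in BNAP/GRP1 than in PFMP by 1.66 on the log2(RPKM + 1) scale (95% interval 0.45 to 2.88; limma adjusted p = 0.674) and higher than in GRP3 by 1.57 (0.36 to 2.79; adjusted p = 0.95). Over the alternatives, the adjusted p of the second ran from 0.0391 to 1, the lowest with libraries weighted by their spread. In that setting the share of all genes called was not counted. Id4, with intervals of about the width seen against NSCs, differed between progenitors by 0.72 at most (BNAP/GRP1 against GRP2/MP3, -2.19 to 3.62; adjusted p = 0.966). The means of Id4 in the progenitors were 22.5 ± 19.0 RPKM in BNAP/GRP1, 16.6 ± 18.7 in GRP2/MP3, 15.5 ± 16.8 in PFMP and 14.5 ± 14.1 in GRP3 (SD, n = 4 each), and no neighbours in this order differed beyond their spread.

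The make-up of the family differed accordingly. RPKM are scaled to gene length, and the 4 members were added on that basis. How well RPKM compare between genes in this amplified polyadenylated RNA was not tested. Id4 held 71.3%, 40.7%, 2.49% and 63.6% of the summed Id RPKM in the NSC libraries of batches 1 to 4. In the 16 progenitor libraries the Id4 share was 0.00801% to 22.1%. Id4 was the highest member in 3 of 4 NSC libraries and in no progenitor library, whereas Id2 was the highest in 13 of 16 progenitor libraries and Id3 in the remaining 3, all of batch 4. The summed Id level itself was 304 to 730 RPKM in NSCs and 45.8 to 1224 RPKM in progenitors, so the ranges overlapped. Id1 held 0.899% to 8.68% of the sum in 19 libraries and 27.8% in BNAP/GRP1 of batch 4. In that library the sum was 61.0 RPKM, and the median RPKM over all genes was 8.30.

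**Figure D4:**
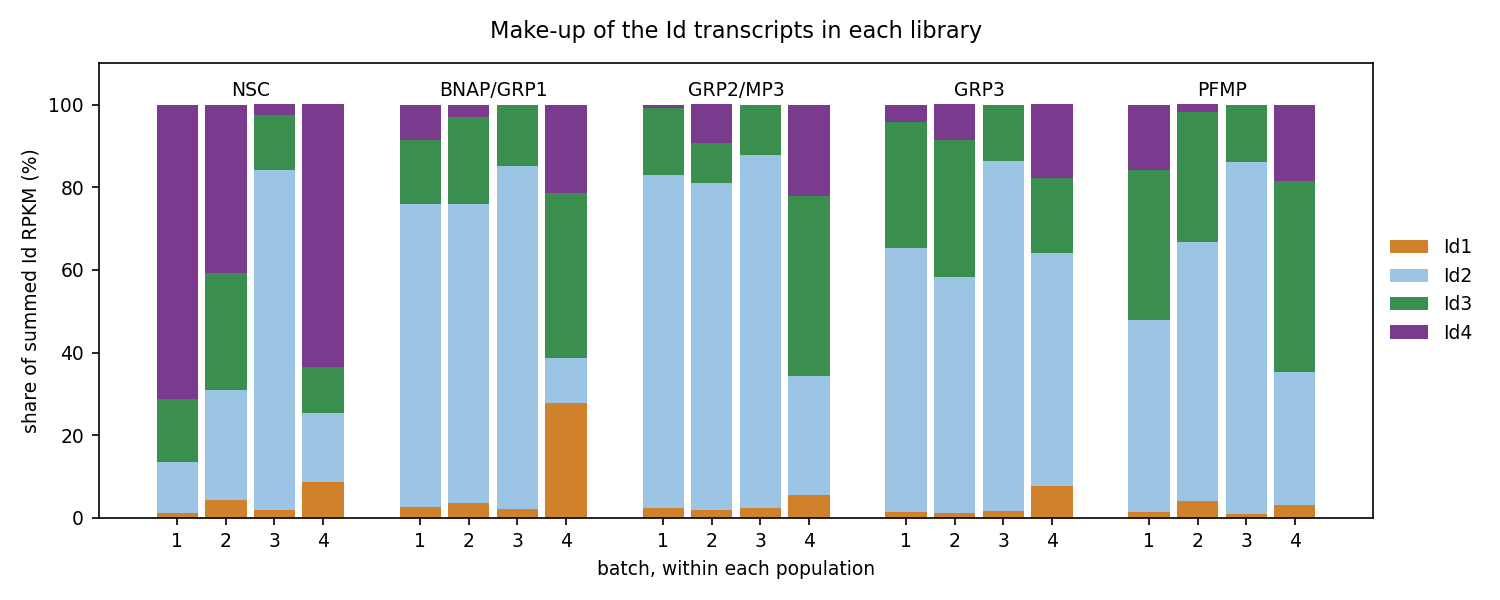
Share (%) of each member in the summed Id RPKM of each library, with bars ordered by batch within each population. Id4 (top) made up 40.7% to 71.3% of the sum in NSC of batches 1, 2 and 4 and at most 22.1% in any progenitor library.

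E proteins are the direct partners of ID proteins, and none of the 3 genes was called against NSCs with or without the block. Tcf4 was the most abundant, with 135 ± 106 RPKM in PFMP, 123 ± 83.0 in GRP3, 76.9 ± 48.0 in BNAP/GRP1, 68.7 ± 27.9 in GRP2/MP3 and 59.3 ± 17.0 in NSCs (SD, n = 4 each). Tcf12 was 12.1 ± 2.81 RPKM in NSCs and 29.3 ± 9.53 in GRP3, a log2 difference of 1.16 (SE 0.46; limma adjusted p = 0.577). Tcf3, which encodes E12 and E47, was 12.4 ± 6.10 RPKM in NSCs and 8.21 ± 5.12 to 10.7 ± 2.21 in the progenitors. The ratio of summed Id to summed E protein RPKM was 2.75 to 9.13 in NSCs and 0.427 to 8.41 in progenitors. Batch 3 gave the highest ratio of all 4 progenitors (7.71 to 8.41), there above NSC (7.68). In batches 1, 2 and 4 the ratio of every progenitor lay below NSC of its own batch (9.13, 8.88 and 2.75). It was 4.73, 7.50 and 0.718 in BNAP/GRP1 and 5.30, 3.36 and 0.943 in GRP2/MP3. In GRP3 and PFMP (0.427 to 1.76) it lay below each NSC ratio of those batches. These are ratios of RNA, with RPKM of different genes added, and say nothing of the proteins.

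Of the 62 genes in 11 lists of partners and pathway members, 56 passed the filter, and none was called against NSCs without the block in any comparison. With the block, the calls among the 56 were 3 each for GRP3 and PFMP, 2 for GRP2/MP3 and 1 for BNAP/GRP1, where the blocked share of all genes called was 2.6%, 2.79%, 3.08% and 2.09%. These counts are small, and those of GRP2/MP3 and BNAP/GRP1 are about what that share of 56 genes would give. The list of oligodendrocyte bHLH factors held 2 of them: Olig1 and Olig2, which direct the oligodendrocyte lineage, were higher than in NSCs in GRP3 by 4.82 (blocked SE 0.78; blocked limma adjusted p = 0.00098) and 4.86 (SE 1.02; adjusted p = 0.00986) and in PFMP by 4.39 (SE 0.78; adjusted p = 0.0023) and 4.13 (SE 1.02; adjusted p = 0.032). Their means were 552 ± 508 and 462 ± 485 RPKM in GRP3 and 8.01 ± 4.61 and 4.20 ± 3.66 RPKM in NSCs (SD, n = 4 each). The third Olig gene was not called, and the list's median log2 difference was 4.82 in GRP3 and 4.13 in PFMP, beside 0.05 and -0.20 over all genes. Olig1 was 7.70 RPKM in GRP3 and 7.54 in PFMP of batch 3, against 110 to 1311 in their other libraries.

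Among the 8 HES and HEY repressors, which act downstream of Notch, Hey1 was called lower with the block in BNAP/GRP1 (-2.34, blocked SE 0.51; blocked limma adjusted p = 0.0154) and in GRP2/MP3 (-3.15, SE 0.51; adjusted p = 0.000904). Hey1 was 102, 66.9, 8.76 and 34.3 RPKM in the NSC libraries of batches 1 to 4 and 0.127 to 32.7 RPKM in the progenitors. Like Id4, Hey1 lay below NSC within each batch in all 16 pairs, which was not counted over all genes. Hes1, the most abundant repressor, was 113 ± 113 RPKM in NSCs and 63.6 ± 58.1 in GRP2/MP3, its highest mean among progenitors (SD, n = 4 each), and was not called. Hes6, which opposes Hes1, was 19.6 ± 14.0 RPKM in NSCs and 69.2 ± 62.3 in GRP3 and was not called. The list's median was -0.29 for PFMP, 0.08 for GRP3, -0.18 for GRP2/MP3 and 0.36 for BNAP/GRP1, beside -0.20, 0.05, -0.08 and 0.38 over all genes.

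Of the 4 CDK inhibitor genes that E proteins are known to activate, Cdkn1a, which encodes p21, was called lower with the block in GRP3 (-3.76, blocked SE 0.84; blocked limma adjusted p = 0.0161) and PFMP (-3.37, SE 0.84; adjusted p = 0.0333). It was 164, 207, 204 and 175 RPKM in the NSC libraries of batches 1 to 4. In GRP3 it was 5.06, 2.90, 197 and 6.85 RPKM, and in PFMP 2.45, 7.55, 186 and 18.7 RPKM. The batch 3 library of both progenitors was at the NSC level, and their other libraries were all below it. Cdkn1c, the p57 gene, was 16.1 ± 23.7 RPKM in NSCs and 27.5 ± 19.6 in GRP3, its highest mean (SD, n = 4 each). The list's median in GRP3 was -0.71 and in PFMP -1.15.

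**Figure D5:**
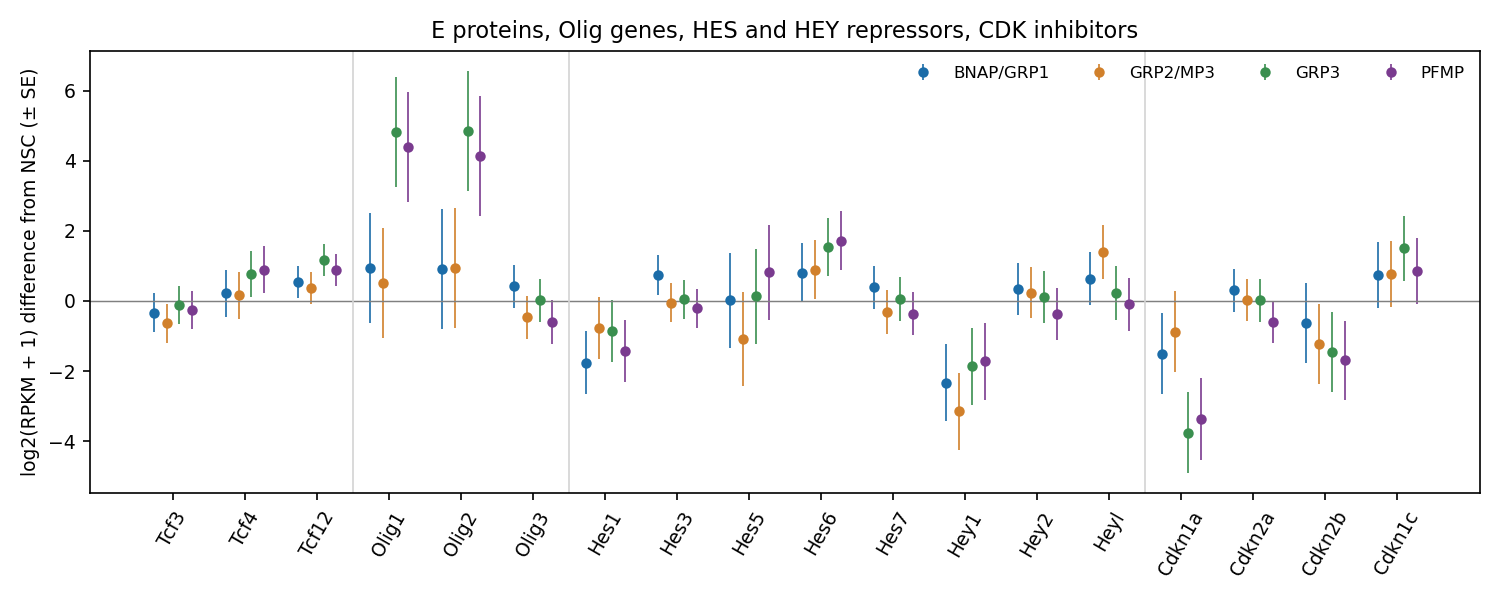
Differences in log2(RPKM + 1) from NSC, with their SE (no batch term), for the E protein genes, the Olig genes, the HES and HEY repressors and the CDK inhibitors (groups parted by grey lines), by progenitor. The largest upward values are Olig1 and Olig2 in GRP3 and PFMP (4.13 to 4.86), and the largest downward ones Cdkn1a in GRP3 and PFMP (-3.76 and -3.37).

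None of the 8 BMP receptor genes and none of the 3 tested of 4 SMAD genes was called with or without the block. The receptor Bmpr2 was 8.95 ± 5.46 to 17.1 ± 10.2 RPKM over the 5 populations, and the common SMAD gene Smad4 15.4 ± 8.99 to 32.3 ± 20.6 RPKM (SD, n = 4 each). Among ligands, 5 of 7 were tested and none was called in a progenitor. Bmp7 was 2.80 ± 3.47 RPKM in NSCs and 30.7 ± 24.1 in GRP3, with a log2 difference of 2.50 (SE 1.23; limma adjusted p = 0.931), and Bmp4 was 0.813 ± 1.31 RPKM in NSCs and 14.2 ± 24.6 in PFMP. Bmp6 was the 1 ligand called with the block in NSCs against all progenitors, higher by 1.65 (blocked SE 0.46, blocked limma adjusted p = 0.0496). In that comparison 4.36% of all genes were called. Its NSC level was 9.87 ± 17.2 RPKM (SD, n = 4), with libraries from 0.285 to 35.7 RPKM.

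Of the 6 BMP antagonists, Nog, which encodes the secreted noggin, was called lower with the block in GRP2/MP3 (-2.40, blocked SE 0.56; blocked limma adjusted p = 0.0202), at 8.09 ± 4.87 RPKM in NSCs and 0.627 ± 0.759 in GRP2/MP3 (SD, n = 4 each). Smurf1, a ubiquitin ligase for SMAD proteins, was 3.65 ± 1.97 to 6.04 ± 3.63 RPKM. None of the 5 other BMP-SMAD targets was called: Smad7, an inhibitory SMAD, was 1.57 ± 0.271 RPKM in NSCs and 8.29 ± 6.23 in BNAP/GRP1 (1.56, SE 0.56; limma adjusted p = 0.475), and Msx1 was 3.91 ± 3.67 RPKM in NSCs and 0.243 ± 0.0944 in PFMP. The median log2 difference of these 5 targets was -1.05 in PFMP, -0.60 in GRP3, -0.59 in GRP2/MP3 and 0.44 in BNAP/GRP1. Over all genes it was -0.20, 0.05, -0.08 and 0.38 in the same order. Within BNAP/GRP1 the sum of the 5 targets was highest in the batch 4 library (69.9 RPKM), whose median RPKM over all genes was 8.30. Of the 12 proneural and neuronal factors 9 were tested and none was called, with Neurod6 at 1.20 ± 0.806 RPKM in NSCs and 2.15 ± 1.66 in GRP3. Usp1, a deubiquitinase known to stabilise ID proteins, was 11.1 ± 4.93 RPKM in NSCs and 34.4 ± 25.3 in GRP3, and Fzr1, an activator of their degradation, ran from 6.62 ± 3.4 RPKM in GRP2/MP3 to 13.5 ± 8.33 in GRP3, with neither called.

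The genes of the sorting antigens followed the gates in part. Pdgfra, the CD140a gene, was called higher with the block in GRP3 (5.50, blocked SE 1.06; blocked limma adjusted p = 0.00482) and PFMP (4.99, SE 1.06; adjusted p = 0.0108). Cspg4, the NG2 gene, was 0.540 ± 0.402 RPKM in NSCs, 46.5 ± 47.3 in GRP3 and 43.5 ± 68.7 in PFMP (SD, n = 4 each) and was not called. Prom1, the CD133 gene, was 37.5 ± 35.6 RPKM in NSCs and 7.79 ± 7.58 to 12.9 ± 15.5 in the progenitors, and was called only against all progenitors with the block (1.86, blocked SE 0.50; adjusted p = 0.0371). The lowest Pdgfra values of GRP3 and PFMP, 3.41 and 3.84 RPKM, were both those of batch 3.

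The genes whose pattern over the 20 libraries was most like each member were found by Pearson's r on the log2(RPKM + 1) scale after the mean of each batch was subtracted, and are given with no test. For Id4 they were Msi2 (r = 0.947), which encodes the RNA-binding protein Musashi-2 of neural precursors, Nme7 (0.942) and Gpc4 (0.939), a glypican gene. For Id1 they were C4b (0.904), a complement gene, 2810402E24Rik (0.889) and Plec (0.881), the gene of the cytoskeletal linker plectin. For Id2 they were Sept11 (0.908), a septin gene, Stk38l (0.846) and Klhl24 (0.834), and for Id3 Slc6a11 (0.785), the GABA transporter gene of astrocytes, Plcd4 (0.778) and Fmo1 (0.768). Between the members themselves r ran from -0.114 (Id2 and Id4) to 0.358 (Id1 and Id3). The genes named above have the highest r of all genes tested, so they give no scale for these values. With batch means kept, 2 of the 3 genes named for Id4 stayed among its closest 3, and none of those named for Id1, Id2 or Id3 did. Points of a batch share that batch, and the values of a library share its depth.

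The Id4 promoter is shown because Id4 was the member whose level differed between NSCs and progenitors. These are the 250 bases before its start site in RefSeq, chr13:48260866-48261115 on the plus strand of GRCm38.p6, written 5′ to 3′, with the GC-rich SMAD element GGCGCC in capitals.
Id4 promoter: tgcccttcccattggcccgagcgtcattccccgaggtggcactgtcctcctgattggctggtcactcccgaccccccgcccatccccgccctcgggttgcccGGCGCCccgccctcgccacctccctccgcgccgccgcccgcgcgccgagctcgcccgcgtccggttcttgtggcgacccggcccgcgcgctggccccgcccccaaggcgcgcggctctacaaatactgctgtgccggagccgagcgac
GGCGCC was searched on both strands (it reads the same on each) in the window of the promoter table (these 250 bases and a short stretch after the start site), and occurred 1 time in the Id4 and 1 time in the Id2 window but not in that of Id3, while 11.9% of 32851 promoters held it. The SMAD box GTCT, searched with its complement AGAC, occurred 3 times for Id3, 1 time for Id2 and not for Id4, and 88% of promoters held it. The E-box CANNTG occurred 1 time for Id2 alone (72.3% of promoters), and the cAMP response element TGACGTCA in none of the 3 (1.79%). Id1 is not in the promoter table.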

How the data were processed

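Cells from the postnatal day 5 periventricular zone were sorted into 5 populations, and 20 libraries (4 batches of each) were sequenced after amplification of polyadenylated RNA. Per the submitters' processing notes and the paper's methods, the authors used nf-core/rnaseq with FastQC 0.11.9, cutadapt 3.4, STAR 2.6.1 on GRCm38 and Salmon 1.9.0, and excluded 2 experiments of low quality. The deposited values are RPKM, computed by the authors; gene lengths, read totals and annotation are not given in the sources used here. The table has 26 further columns with no sample name and no values, which were not used. Genes were followed by Ensembl identifier.

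RPKM were taken as log2(RPKM + 1), so fold changes of low genes are understated. Testing took in the 27614 genes that reached 1 RPKM in 4 or more of the 20 libraries, in R 4.3.3 with limma 3.58.1 (lmFit, eBayes with a trended prior), with 1 mean per population and all libraries sharing the spread. P-values are those of limma's moderated test, adjusted by Benjamini-Hochberg over all genes tested, two-sided, at a threshold of 0.05. The fit was also run on simulated data in which libraries were drawn independently of each other. That simulation held no batch structure, so it does not test the fit under one. Same-numbered libraries belong together because the labels call the number a batch, but the main fit had no batch term and ignored this pairing. The median correlation of their deviations from the population means was 0.337, 0.262, 0.769 and 0.581 in batches 1 to 4 (lowest of any pair 0.0341). Between batches it was -0.254. The adjusted p-values without the block therefore leave the likeness within a batch in the spread. A block of the batch was an alternative, beside a pseudocount of 0.1, no filter, a mean of at least 5 RPKM, median-of-ratios and quantile scaling, an untrended prior, library weights, each library and each batch left out, and only the 2 populations compared.

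Raw counts were not used here. The relative depth of libraries and the reads behind an Id value were inferred from the steps of the RPKM values, as the smallest number of reads in the lowest library that made at least 70% of the estimates under 3000 reads whole within 0.05; reads were whole in 20 of 20 libraries for Id1, Id2 and Id3 and in 14 for Id4. The sources do not say how the litters of the batches differ, so p-values measure the spread between these samples.

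The named genes were all Id and E protein genes and, in every other list, members past the threshold in any contrast with NSCs and the 2 with the highest mean RPKM, with members called under the block added after their values were seen; for each Id gene the 3 most correlated genes were named. The values of 1 gene that this rule names are not reported here. The members and lists were chosen with earlier results of these data known. Sequences came from GENCODE vM21 transcripts and the RefSeq promoter table (GRCm38.p6).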

Additional observations from a re-analysis of the deposited data

How the results depend on the processing

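The direction of Id4 held under every alternative run: its log2 difference from NSCs ran from -4.53 to -2.34 in BNAP/GRP1, -5.24 to -3.09 in GRP2/MP3, -5.15 to -2.99 in GRP3 and -5.03 to -3.07 in PFMP, and from 3.22 to 4.98 in NSCs against all progenitors. Its call did not: 0 of 4 Id genes were called without a block, and with the replicate block 1 was called in each of the 4 progenitors and in NSCs against all progenitors. With batch 3 out of every population, with or without the block, 1 Id gene was called in GRP2/MP3, GRP3, PFMP and NSCs against all progenitors, and 0 in BNAP/GRP1. With library weights the count was 1 in GRP2/MP3, 2 in GRP3 (Id1 and Id4), 1 in NSCs against all progenitors and 1 between progenitors (Id1, BNAP/GRP1 against GRP3, 1.18). Leaving out 1 library gave 0 calls throughout, with the exception of NSCs against all progenitors, where the range was 0 to 1 and the call came without NSC of batch 3 (4.98, limma adjusted p = 0.0152). The block changed no other call of an Id gene. Calls over all genes were counted for the main fit and the replicate block only. Counts of Id genes under the other settings therefore have no share of all genes beside them.

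Among the uncalled members, Id1 kept its sign in GRP2/MP3, GRP3, PFMP and NSCs against all progenitors under every alternative run, as did Id2 (0.02 to 1.37) and Id3 (-1.29 to -0.13) in GRP2/MP3. The other signs were not stable. Without 1 library, Id1 in BNAP/GRP1 ran from -0.26 to 0.45, and with library weights it was -0.22. Id2 ran from -0.39 to 1.9 in BNAP/GRP1, -0.27 to 1.10 in GRP3, -0.68 to 0.64 in PFMP and -0.78 to 0.22 in NSCs against all progenitors. Id3 ran from -0.67 to 0.45 in BNAP/GRP1, -0.99 to 0.32 in GRP3, -0.65 to 0.20 in PFMP and -0.03 to 0.82 in NSCs against all progenitors. Quantile scaling gave -0.16 for Id2 and 0.07 for Id3 in BNAP/GRP1, and 0.13 and 0.01 in PFMP. With batch 1 out, Id2 was -0.15 for BNAP/GRP1, -0.19 for GRP3 and 0.11 for NSCs against all progenitors, and Id3 was 0.05 in BNAP/GRP1. With batch 2 out, Id2 was -0.24 in BNAP/GRP1 and Id3 0.07 in PFMP. With batch 4 out, Id3 was 0.02 in BNAP/GRP1 and Id2 0.16 in PFMP. The causes were not tested. The median of all genes lay at 0.38 in BNAP/GRP1 and -0.20 in PFMP, so differences of that size are relative to it. With the block, the 95% intervals against NSCs reached from -1.37 to 1.80 for Id2 and from -1.80 to 1.04 for Id3. They give the precision of each estimate and are not a limit of detection, because calls used p adjusted over all genes tested. The blocked Id1 intervals, for example, excluded 0 in GRP3 (-2.46 to -0.38) and PFMP (-2.55 to -0.47), and neither was called.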
